A study of Sus scrofa with 6 samples.

Results

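The sodium-potassium pump was followed here through its beta subunits in the cerebral cortex of male pigs. Of the 3 beta subunit genes sought by name, ATP1B1, ATP1B2 and ATP1B3, a row was matched for 2, ATP1B1 and ATP1B2, among the 28965 genes listed per library. Their Ensembl identifiers in the files are ENSSSCG00000006296 for ATP1B1 and ENSSSCG00000017951 for ATP1B2. ATP1B3 was matched neither by name nor through the table of gene names and was not analysed here. Both matched genes had enough reads to enter the test, as did 14458 genes in all.

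Polyadenylated RNA was sequenced from frozen cortex of 6 male pigs aged 140 days. In 3 of them a deletion of UBE3A, a ubiquitin ligase gene, had been inherited from the mother, and the other 3 were wildtype. Each library came from a separate animal, no treatment or transgene is named in the labels for either group, and the extent of the deletion within UBE3A is not stated in them. The deletion libraries held between 21802529 and 28109327 exon reads and the wildtype libraries between 19796762 and 28126173. UBE3A itself had 330, 170 and 165 exon reads in the deletion libraries, against 2087, 2723 and 1823 in the wildtype libraries, as its genotype label calls for in every library. The tissue label was checked on marker genes: all 8 pan-neuronal markers and all 8 astrocyte markers sought were in the tested set, with SNAP25, a neuronal fusion protein, at 4197 ± 545 TPM in deletion and 3948 ± 467 TPM in wildtype cortex (SD, n = 3 each). GFAP, the intermediate filament of astrocytes, stood at 1055 ± 105 TPM in deletion and 908 ± 148 TPM in wildtype cortex (SD, n = 3 each). TPM corrects for gene length and library size and allows genes to be compared with each other.

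The sodium-potassium pump is a P-type ATPase that uses ATP to export sodium and import potassium across the plasma membrane. In brain it restores the ion gradients that action potentials and synaptic currents run down, and those gradients power the reuptake of transmitters. Each pump pairs a catalytic alpha subunit with a glycosylated beta subunit, which the complex needs for folding and for delivery to the cell surface. ATP1B1 encodes the beta subunit known as the main neuronal isoform in rodent brain, although other cell types carry it as well. ATP1B2 encodes the isoform first described in mouse as the adhesion molecule on glia, and in cortex it is known mainly from astrocytes.

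ATP1B1 was among the most abundant messages of the pig cortex, ranking 47 of all 28965 genes by mean TPM. Its level was 1191, 1363 and 1292 TPM in deletion replicates 1 to 3, against 1423, 1093 and 1484 TPM in wildtype replicates 1 to 3. The deletion libraries lay inside the wildtype range, whose lowest value came from replicate 2 and was below every deletion library. The means were 1282 ± 86.8 TPM in deletion and 1333 ± 210 TPM in wildtype cortex (SD, n = 3 each). These levels rested on 33969 to 37505 exon reads in the deletion libraries and 32866 to 37725 in the wildtype libraries, so counting error was small beside the spread between animals.

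ATP1B2 was less abundant and ranked 195 by mean TPM. It measured 447, 415 and 393 TPM in deletion replicates 1 to 3, against 579, 462 and 449 TPM in wildtype replicates 1 to 3. On this scale the deletion libraries were all lower than the wildtype libraries, by a narrow margin between deletion replicate 1 and wildtype replicate 3. The means were 418 ± 27.3 TPM in deletion and 497 ± 71.5 TPM in wildtype cortex (SD, n = 3 each). Exon reads numbered 10853 to 14707 in the deletion libraries and 10589 to 16122 in the wildtype libraries.

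**Figure D1:**
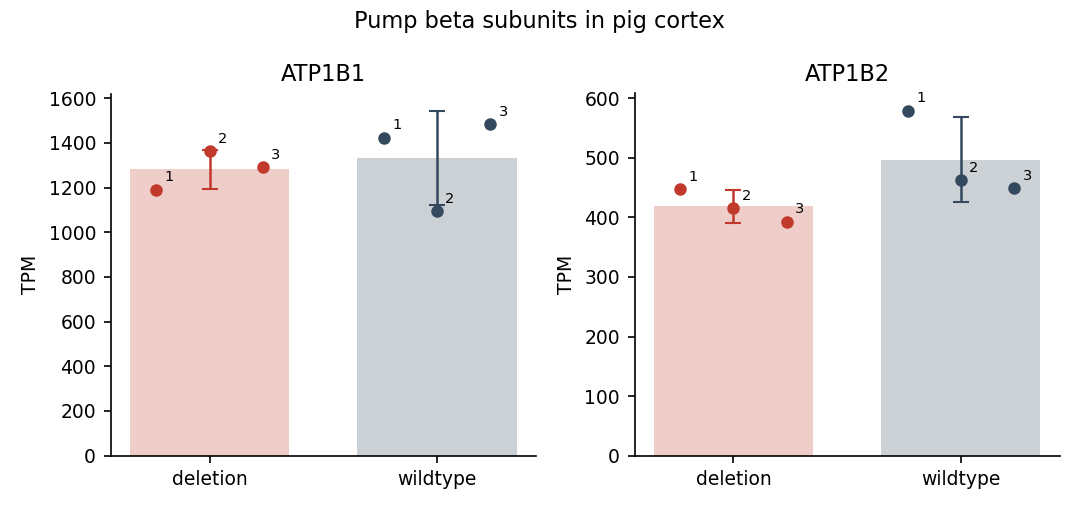
Level of ATP1B1 (left) and ATP1B2 (right) in TPM by genotype. Points are libraries marked with their replicate number, bars are group means and error bars the SD of 3 animals. The deletion libraries of ATP1B1 sit between 1191 and 1363 TPM, inside the wildtype range of 1093 to 1484 TPM, whereas those of ATP1B2 sit between 393 and 447 TPM, just below the lowest wildtype library at 449 TPM.

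The separation of ATP1B2 in TPM has to be read against the scale. TPM fixes the sum over all genes, and the median tested gene stood 0.12 lower in deletion cortex on the log2(TPM + 0.5) scale. Of all tested genes, 15.5% were lower in all deletion libraries than in any wildtype library in TPM, while 1.92% were higher in all of them. Mitochondrially encoded mRNAs took 13.7% to 16.9% of exon reads in the deletion libraries and 11.2% to 13.6% in the wildtype libraries, and their part in the TPM shift was not tested. Relative to the median gene, ATP1B2 was lower by a log2 difference of -0.12 and ATP1B1 higher by 0.07. With counts scaled by the trimmed mean of M values (TMM) and given as CPM, the groups of ATP1B2 overlapped. It measured 520, 550 and 509 CPM in deletion replicates 1 to 3, against 679, 502 and 531 CPM in wildtype replicates 1 to 3. Wildtype replicate 1 alone stood above the other libraries. On the same scale ATP1B1 measured 1319, 1721 and 1592 CPM in deletion replicates 1 to 3, against 1590, 1131 and 1671 CPM in wildtype replicates 1 to 3. Its lowest library was again wildtype replicate 2, and its groups overlapped too. Over all tested genes, 13.9% had groups that did not overlap in TMM-scaled CPM, and neither beta subunit was among them.

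Neither beta subunit passed the test of deletion against wildtype, with edgeR or with DESeq2, and neither had an unadjusted p under 0.05 (0.656 for ATP1B1 and 0.375 for ATP1B2 by edgeR's quasi-likelihood test). For ATP1B1 the log2 fold change of deletion over wildtype was 0.08 (SE 0.17), with a 95% interval of -0.30 to 0.46 and an adjusted p of 0.912 by edgeR's quasi-likelihood test. As a ratio of deletion to wildtype this is 1.05, with an interval of 0.81 to 1.37. For ATP1B2 the log2 fold change was -0.12 (SE 0.13), with a 95% interval of -0.40 to 0.17 and an edgeR adjusted p of 0.81. As a ratio it is 0.92, with an interval of 0.76 to 1.12. Both intervals include 1, and changes inside them, in either direction, are not excluded by these 6 libraries. Of the 14458 tested genes, 0.00692% passed with edgeR, which is 1 gene, UBE3A, and 21 genes passed with DESeq2. In the authors' deposited table the fold change is 1.06 for ATP1B1 and -1.08 for ATP1B2, where a minus sign marks a fall, and the adjusted p there is 0.997 for both.

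The direction of each difference depended on single animals. Without wildtype replicate 2, the library in which ATP1B1 was lowest, the log2 fold change of ATP1B1 was -0.078, and without deletion replicate 2 it was -0.0063. On the log2(TPM + 0.5) scale it was -0.046. Without wildtype replicate 1, the library in which ATP1B2 was highest, the log2 fold change of ATP1B2 was 0.024. The spread of ATP1B1 between animals of 1 genotype was wide for a message of its abundance. Its SD within groups was 0.26 on the log2(CPM + 0.5) scale, larger than in 90.0% of the 200 tested genes closest to it in level, whose median was 0.14. For ATP1B2 the SD was 0.17, larger than in 67.0% of the 200 genes closest to it.

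ATP1B1 exceeded ATP1B2 per length in every animal. The ratio of ATP1B1 to ATP1B2 in TPM was 2.66, 3.28 and 3.29 in deletion replicates 1 to 3, against 2.46, 2.36 and 3.30 in wildtype replicates 1 to 3. ATP1B1 thus made up between 72.7% and 76.7% of the summed TPM of both genes in deletion cortex and between 70.3% and 76.8% in wildtype cortex. Over the 6 animals ATP1B1 was on average 2.86-fold higher (mean log2 ratio 1.52, SD 0.23), and an exact two-sided sign-flip permutation test gave p = 0.0312, the smallest that 6 animals allow. The adjusted value is the same, since this was the only pair of levels that could be compared. Gene length contributed little, as the length behind the values of ATP1B1 was 0.952 times that of ATP1B2.

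The ratio of ATP1B1 to ATP1B2 did not differ between genotypes beyond the spread of the animals. It averaged 3.08 ± 0.36 in deletion cortex and 2.71 ± 0.52 in wildtype cortex (SD, n = 3 each), and the groups overlapped. The difference in mean log2 ratio, deletion minus wildtype, was 0.19, with p = 0.4 by an exact two-sided permutation test, for which 0.1 is the smallest p that 3 against 3 animals allow. Only this ratio could be formed, so no adjustment over several ratios applied. Libraries of both genotypes stood at about the same high value, namely deletion replicates 2 and 3 and wildtype replicate 3, and the other libraries were lower. Among animals whose number begins with 14, 1 of each genotype, the ratio was 2.66 in deletion and 2.46 in wildtype cortex. Among those whose number begins with 15 it was 3.28 and 3.29 in deletion, against 2.36 and 3.30 in wildtype cortex. The meaning of that number is not given in the labels.

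**Figure D2:**
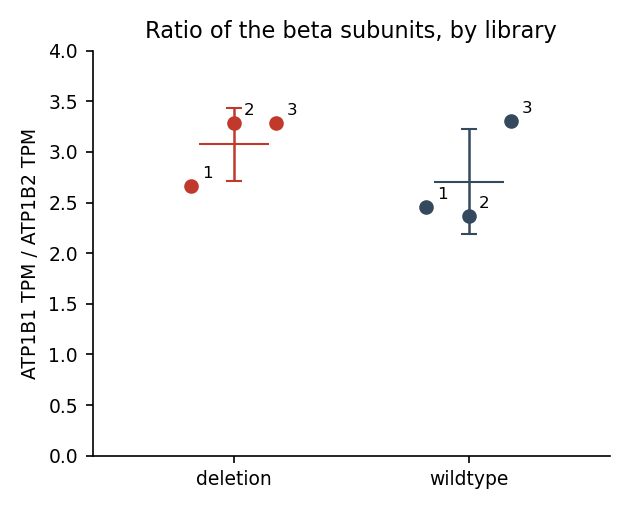
Ratio of ATP1B1 TPM to ATP1B2 TPM by genotype. Points are libraries marked with their replicate number, horizontal lines are group means and error bars the SD of 3 animals. Deletion replicates 2 and 3 and wildtype replicate 3 lie at 3.28 to 3.30, and the remaining libraries lie at 2.36 to 2.66.

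The cell type composition of the cortex pieces was set beside these values, as in bulk tissue fewer cells of a type and less RNA per cell cannot be told apart. A marker score was taken as the mean, over a list of marker genes, of log2(CPM + 0.5) less each gene's mean over the 6 libraries. The score of the 8 astrocyte markers was 0.20, -0.0084 and -0.17 in deletion replicates 1 to 3, against 0.08, 0.09 and -0.19 in wildtype replicates 1 to 3. The libraries with the higher astrocyte scores, deletion replicate 1 and wildtype replicates 1 and 2, were those with the lower ratio of ATP1B1 to ATP1B2. They were also the libraries with the most exon reads, at 28109327 for deletion replicate 1, and at 23823287 and 28126173 for wildtype replicates 1 and 2. Of the 8 astrocyte markers, SLC1A2 varied most relative to its mean, and it split the libraries in the same way. It measured 60.7, 13.3 and 12.6 TPM in deletion replicates 1 to 3, against 50.8, 56.9 and 21.5 TPM in wildtype replicates 1 to 3. The order of the astrocyte scores thus leans on this 1 gene, and a score without it was not taken. The part of composition and of depth in the ratio was not tested.

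ATP1B1 lay on the same side of its mean as the pan-neuronal list in all 6 libraries, but did not keep to the side of the excitatory neuron list. ATP1B2 did not keep to the side of the astrocyte list. The score of the 8 pan-neuronal markers was -0.19, 0.05 and 0.0052 in deletion replicates 1 to 3, against 0.10, -0.04 and 0.07 in wildtype replicates 1 to 3. Deletion replicate 1 and wildtype replicate 2 were the libraries below the mean both for these markers and for ATP1B1. The markers were lowest in deletion replicate 1, and ATP1B1 in wildtype replicate 2, where it stood 0.40 below its own mean on the log2 scale. The score of the 5 excitatory neuron markers was -0.06, 0.11 and -0.11 in deletion replicates 1 to 3. In wildtype replicates 1 to 3 it was -0.07, 0.18 and -0.05, so it was highest where ATP1B1 was lowest. ATP1B2 stood 0.32 above its own mean in wildtype replicate 1, a library with an astrocyte score of 0.08, and 0.07 below it in deletion replicate 1, the library with the highest astrocyte score. In wildtype replicate 1 the score of the 7 inhibitory neuron markers was 0.34, the highest of the 6 libraries. The pan-neuronal score (0.10) and the score of the endothelium markers (0.20) were also highest in that library. Oligodendrocyte markers varied most among the neuronal and macroglial lists, with scores from -0.59 to 0.66 in deletion and from -0.47 to 0.49 in wildtype libraries. They were high in wildtype replicate 2 (0.49) and deletion replicate 1 (0.66), the libraries in which ATP1B1 was lowest in each group. They were also above their mean in deletion replicate 3 (0.32), where ATP1B1 stood 0.10 above its own mean. The part of these lists in the levels of the beta subunits was not tested.

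**Figure D3:**
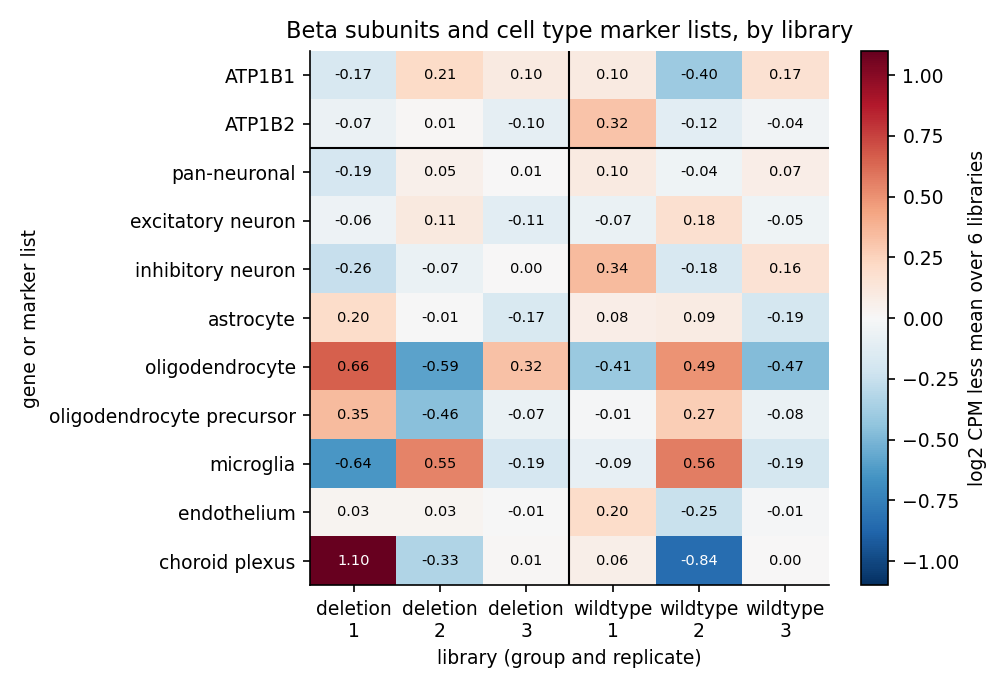
ATP1B1, ATP1B2 and 9 cell type marker lists (rows) in each library (columns), as log2 CPM less the mean over the 6 libraries. Red marks values above and blue values below that mean. ATP1B1 is lowest in wildtype replicate 2 (-0.40) and ATP1B2 highest in wildtype replicate 1 (0.32), and the oligodendrocyte list spans -0.59 to 0.66.

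The calcium pumps belong to the same P-type ATPase family and export calcium or store it in the endoplasmic reticulum. All 7 were tested, 6 with a log2 fold change below 0 and 1 above, where 49.5% of all tested genes were below 0 and 50.5% above. Their median was -0.10, and that of all tested genes 0.0028. None passed edgeR's or DESeq2's adjusted threshold, and none had an unadjusted p under 0.05, a level that 7.23% of all tested genes reached. ATP2A2, the main calcium pump of the endoplasmic reticulum, measured 246 ± 21.2 TPM in deletion and 289 ± 5.74 TPM in wildtype cortex (SD, n = 3 each). With TMM scaling its log2 fold change was -0.10 (SE 0.09), and its groups overlapped. ATP2B4, a plasma membrane calcium pump, had a log2 fold change of -0.19 (SE 0.13), and ATP2B3, another, one of -0.15 (SE 0.12). ATP2A1, the isoform best known from fast skeletal muscle, had one of 0.28 (SE 0.22). ATP1B1 and ATP1B2 lay within the range of these pumps, which ran from -0.19 to 0.28.

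Transporters that draw on the sodium gradient built by the pump were mostly at lower means in deletion cortex, without a member that passed edgeR's or DESeq2's adjusted threshold. Of 20 such genes listed 19 were tested, with a median log2 fold change of -0.11. Of these, 14 were below 0 and 5 above, where 49.5% of all tested genes were below 0. At an unadjusted p under 0.05 there were 2, both lower, against a background of 3.89% of tested genes. The first was SLC8A2, a sodium-calcium exchanger of neurons, at 145, 127 and 141 TPM in deletion replicates 1 to 3, against 187, 218 and 155 TPM in wildtype replicates 1 to 3. The deletion libraries were all lower than the wildtype libraries, and in TMM-scaled CPM the groups were also apart (log2 fold change -0.30, SE 0.11, edgeR adjusted p = 0.683). The second was SLC6A11, a GABA transporter of astrocytes, at 71.8, 57.5 and 48.0 TPM in deletion replicates 1 to 3, against 92.3, 80.3 and 72.3 TPM in wildtype replicates 1 to 3. Here too the groups did not overlap (log2 fold change -0.34, SE 0.14, edgeR adjusted p = 0.683). These were the only 2 of the 19 transporters with groups apart in TMM-scaled CPM, against 13.9% of all tested genes. In TPM, 15.5% of all tested genes were lower in all deletion libraries. SLC1A1, a glutamate transporter of neurons, had a log2 fold change of -0.28 (SE 0.13), and SLC24A2, a potassium-dependent sodium-calcium exchanger, one of -0.72 (SE 0.41). SLC24A2 measured 38.7, 11.9 and 12.2 TPM in deletion replicates 1 to 3, against 39.7, 42.6 and 28.1 TPM in wildtype replicates 1 to 3. Its groups overlapped, since deletion replicate 1 stood within the wildtype range. Beside them, 6 of 7 inhibitory neuron markers had a log2 fold change below 0, with a median of -0.35. In 4 of the 7 the groups did not overlap in TMM-scaled CPM, against 13.9% of all tested genes. DESeq2 called 1 of the 7 and edgeR 0, against 21 and 1 of all 14458 tested genes. Of the 8 pan-neuronal markers 6 were below 0, with a median of -0.10. The part of these markers in the values of the transporters was not tested.

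With TMM scaling, genes of astrocyte potassium and water handling were mostly at higher means in deletion cortex, again without a member that passed by edgeR or DESeq2. Of 6 genes, all tested, 5 had a log2 fold change above 0 and 1 below, where 50.5% of all tested genes were above 0. The median of the 6 was 0.16, and 0 had an unadjusted p under 0.05. AQP4, the astrocytic water channel, measured 258, 237 and 229 TPM in deletion replicates 1 to 3, against 158, 278 and 198 TPM in wildtype replicates 1 to 3. The groups overlapped, since wildtype replicate 2 exceeded all deletion libraries (log2 fold change 0.34, SE 0.16, edgeR adjusted p = 0.685). SLC12A2, a sodium-potassium-chloride cotransporter that is also among the sodium-driven genes, had a log2 fold change of 0.34 (SE 0.27). GJA1 and GJB6, connexins that join astrocytes into a network, had log2 fold changes of 0.14 (SE 0.12) and 0.19 (SE 0.29). Of the 8 astrocyte markers, 5 had a log2 fold change above 0 and 3 below, with a median of 0.08. The 3 below were SLC1A2 (-0.49, SE 0.61), ALDH1L1 (-0.34, SE 0.27) and SLC1A3 (-0.07, SE 0.16). In 2 of the 8 the groups did not overlap in TMM-scaled CPM, against 13.9% of all tested genes. These were GFAP (0.36, SE 0.13) and the transcription factor gene SOX9 (0.38, SE 0.10), both higher in all deletion libraries. The edgeR adjusted p was 0.683 for both, and in TPM the groups of GFAP overlapped. AQP4 and GJA1 belong to both lists, so the astrocyte markers and the potassium and water genes are not independent of each other. The part of the astrocyte markers in the values of the potassium and water genes was not tested.

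**Figure D4:**
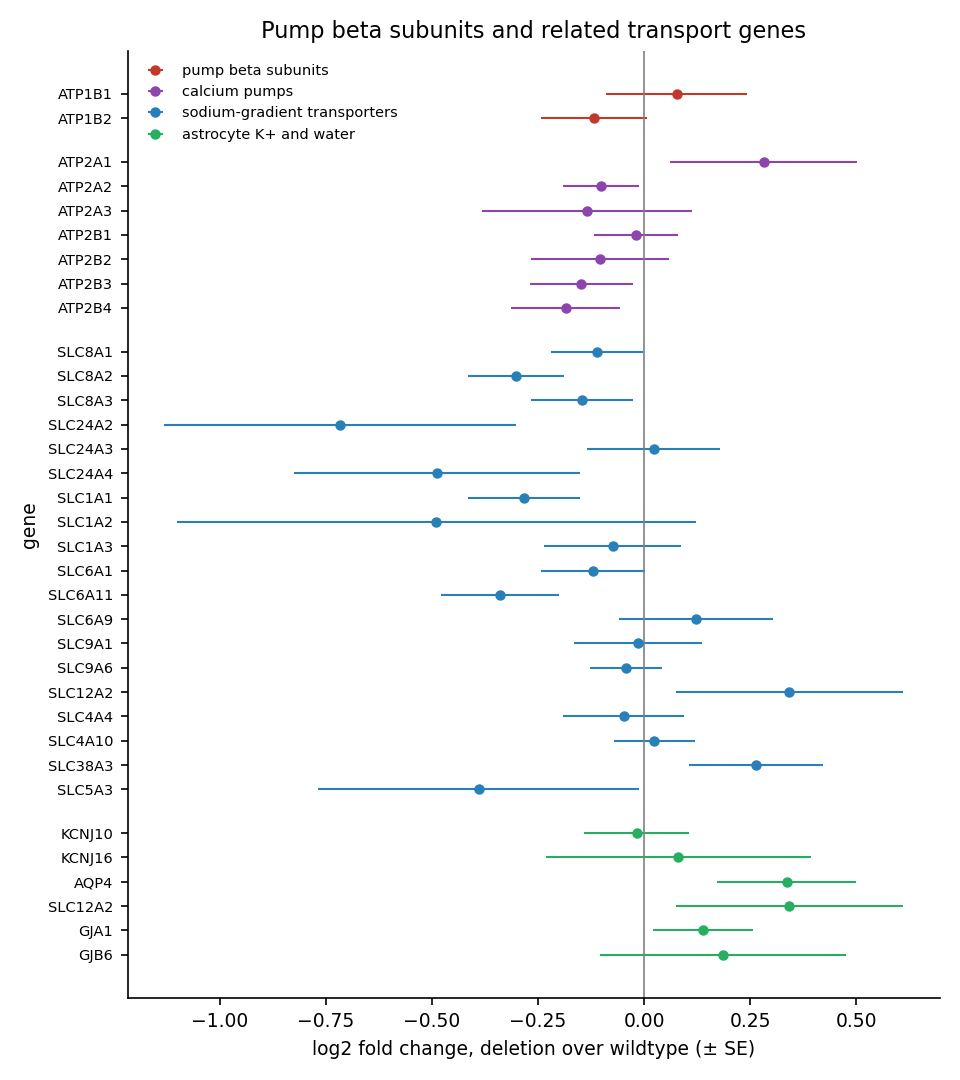
Log2 fold change of deletion over wildtype for the beta subunits and 3 lists of related transport genes, with the SE of edgeR's fit as error bars. The beta subunits, at 0.08 for ATP1B1 and -0.12 for ATP1B2, lie within the spread of the calcium pumps and of the sodium-driven transporters.

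The profiles of the beta subunits over the 6 libraries differed from each other, with a Pearson r of 0.40 between ATP1B1 and ATP1B2 as a description over 6 libraries that share their scaling. Among 8700 genes with a symbol and a mean of at least 10 CPM, those most like ATP1B1 were GMPR2, a guanosine monophosphate reductase (r = 0.991), PYGB, the brain glycogen phosphorylase (r = 0.991), and CDC34, a ubiquitin-conjugating enzyme (r = 0.989). PYGB measured 386, 456 and 431 CPM in deletion replicates 1 to 3, against 441, 347 and 436 CPM in wildtype replicates 1 to 3. As for ATP1B1, its lowest library was wildtype replicate 2 and the next lowest deletion replicate 1. Those most like ATP1B2 were PPP1R9B, a spine protein that binds actin and protein phosphatase 1 (r = 0.996), DLGAP3, a postsynaptic scaffold protein (r = 0.990), and CAMK1G, a calmodulin-dependent kinase (r = 0.990). DLGAP3 measured 266, 293 and 256 CPM in deletion replicates 1 to 3, against 363, 250 and 279 CPM in wildtype replicates 1 to 3. As for ATP1B2, its highest library was wildtype replicate 1. All of these genes were picked as the highest of many correlations over 6 points and carry no test.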

How the data were processed

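For each gene and library, exon read counts, RPKM and TPM were deposited, as named in the file headers. Libraries came from polyadenylated RNA of integrity number above 6.1, with paired reads of 150 bases, per the labels' protocols. No source used here names the aligner, the counter, the genome build or whether counting used strand. A deposited comparison table of the authors holds a signed fold change (a score on its own scale) and p-values, from an unstated test, and 6 columns of group CPM that were left aside. Blank cells were read as 0.

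Counts were filtered with filterByExpr, scaled by TMM and tested over all genes with edgeR 4.0.16 (robust quasi-likelihood F test, no covariate, Benjamini-Hochberg adjustment at 0.05) in R 4.3.3. SEs were derived from the F statistic. TPM served for levels and ratios, and RPKM only to recover the relative gene length. The edgeR fit was tested on simulated counts with known changes. Alternatives used DESeq2 1.42.0 and limma 3.58.1. Replicates were numbered in accession order.

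The members and lists were chosen with earlier results of these data known. Named genes were the matched members, up to 4 genes of lowest p per related list, and the 3 genes of most similar profile per member. GFAP, SNAP25 and UBE3A served as checks of the labels, and SOX9, SLC1A2, ALDH1L1 and SLC1A3 were added after their values were seen. The catalytic subunits of the pump, a list also set out at the start, are not reported here.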

Additional observations from a re-analysis of the deposited data

How the results depend on the processing

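The log2 fold change of ATP1B1 kept its direction in 11 of 14 other settings. It ranged from -0.078 to 0.18 when 1 library was left out and turned below 0 without wildtype replicate 2 (-0.078), without deletion replicate 2 (-0.0063) and with limma on log2(TPM + 0.5) (-0.046), a scale chosen after the data were seen. ATP1B2 kept its direction in 13 of 14, ranged from -0.20 to 0.024 when 1 library was left out, and turned without wildtype replicate 1 (0.024). Adjusted p ranged from 0.68 to 0.998 for ATP1B1 and from 0.435 to 0.981 for ATP1B2, over edgeR, DESeq2 and limma. The number of genes past the threshold was 1 with edgeR, 2 without a filter on low counts and 21 with DESeq2, and 1 to 2 when 1 library was left out. The log2 difference in the ratio of ATP1B1 to ATP1B2 kept its direction in all 8 other settings, between 0.10 and 0.35 when 1 library was left out. The mean log2 ratio over animals ranged from 1.48 to 1.57 when 1 library was left out, where the exact permutation test cannot go below p = 0.0625 with 5 animals. No paired analysis was possible because replicate numbers were given in accession order and pair no animals. With the leading part of the animal number, 14 or 15, as a covariate, the log2 fold change was 0.07 for ATP1B1 and -0.10 for ATP1B2. Settings with ATP1B3 and with uniquely mapped reads were not run, as neither was matched in the files used here. With 3 animals per group, the 95% intervals of both subunits include 0.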

Other observations

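The relatives and regulators of the pump subunits named in this section, which are only those matched by symbol, were nearly silent in these cortex pieces. ATP1B4, a beta-like protein known from muscle, had 0 exon reads in all 6 libraries, which allows up to 0.0416 CPM over the deletion and 0.0418 CPM over the wildtype libraries (3 reads over the group, counting error only). FXYD4, a pump regulator known from kidney, also had 0 reads in all 6 libraries. ATP4B, the beta subunit of the gastric proton-potassium pump, had 0 reads in the deletion libraries and 1 in the wildtype libraries. ATP12A, the catalytic subunit of the colonic proton-potassium pump, had 7, 0 and 6 reads in deletion replicates 1 to 3, against 2, 1 and 3 in wildtype replicates 1 to 3. FXYD3, another regulator, had 9 reads over the deletion and 13 over the wildtype libraries.

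ATP4A, the catalytic subunit of the gastric pump, was the single one of these relatives with enough reads to be tested. It had 14, 13 and 17 reads in deletion replicates 1 to 3, against 2, 20 and 2 in wildtype replicates 1 to 3. Wildtype replicate 2 held more than any deletion library, and the log2 fold change of 0.99 (SE 0.71) did not pass edgeR's test (adjusted p = 0.728). Of 7 regulators of the FXYD family listed, 2 were matched by symbol, so the family was not described further.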
